A study of Mus musculus with 3 samples.

Results

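The collagen chain genes are those whose symbol is Col, a number, a and a number, such as Col1a1, and 44 of the 32285 genes in the deposited matrices met that rule, which uses names only. By the structure of the protein each encodes, 11 are fibrillar chains, 6 belong to the basement membrane network (type IV), 3 to the basement membrane zone (Col7a1, Col15a1 and Col18a1), 6 to beaded filaments (type VI), 9 to the fibril-associated collagens with interrupted triple helices (FACITs), 4 are transmembrane chains, 3 form short-chain networks and 2 fall in none of these. Over the cells analysed, 27 chains had at least 50 UMIs (unique molecular identifiers, each standing for 1 captured transcript), 15 had fewer and 2, Col19a1 and Col2a1, had none.

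Collagens are built from chains that fold into triple helices, and most helices mix chains from several genes. Fibrillar collagens give connective tissue its tensile strength, type IV chains form the sheet under epithelium and around vessels and muscle cells, and type VI filaments join that sheet to the fibrils. In the gut wall these chains come mainly from fibroblasts, smooth muscle and endothelium, and their deposition is part of the repair that follows colitis.

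The 3 libraries came from colonic lamina propria mononuclear cells of C57BL/6J mice. All animals drank 1.5% dextran sodium sulphate (DSS), which injures the colonic epithelium, for 7 days and water for 3 days, and received 250 µg of antibody into the peritoneum 3 times a week. One library was made for each antibody: rat IgG, the isotype control (RatIgG), and the clones DATK32 and MECA367. The labels call DATK32 a surrogate of ontamalimab and MECA367 a surrogate of vedolizumab. As background, DATK32 is known as an antibody to the gut-homing integrin and MECA-367 as one to its vascular ligand, the reverse of that pairing, so the groups go by clone here. Ages, sexes and the number of animals behind each library are not given in the sources used here. No group has a replicate, so no difference between libraries has a replicate check and no p-value is given. Values follow the order RatIgG, DATK32 and MECA367.

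The matrices held 10826, 8445 and 8387 barcodes, of which 7367, 5852 and 5890 passed the limits of at least 500 UMIs, at least 200 genes and at most 10% mitochondrial UMIs. Kept cells had medians of 1469, 1524.5 and 1824.5 UMIs and 30271, 25080 and 39317 UMIs of collagen chains. The labels describe sorted viable CD45+ cells, yet immune classes held 38.6%, 36.6% and 48.6% of kept cells. Stromal classes held 19.8%, 20.7% and 23.1%, epithelial classes 30.3%, 29.6% and 14.99%, and endothelium 1.45%, 1.71% and 1.73%. Ptprc, which encodes CD45, stood at 545, 694 and 692 counts per 1000000 UMIs (CPM) in the immune classes and at 30.2, 21.0 and 6.02 CPM in the stromal ones. The libraries shared 20, 18 and 20 barcodes by pair, of which 11, 9 and 7 were kept in both. Shares of cells of a type are set by this sort and by tissue digestion and are not compared between libraries.

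Cells were clustered without the collagen chains, so that their levels did not shape the classes, and clusters were named from marker lists. Every marker of the 9 classes named below was detected in at least 1 library of its class, which 1 UMI is enough to meet. Some were near the floor, such as Hapln1 at 0 to 18.5 CPM in mucosal fibroblasts and Ackr4 at 0 to 15.9 CPM in Grem1 cells. Mucosal fibroblast-like cells (112, 82 and 391) carried Adamdec1 at 14446 to 14670 CPM and Ccl11 at 1082 to 1459 CPM. Deep-layer fibroblast-like cells (84, 60 and 89) carried Mgp, Gsn, Dpt and Lum, and Pdgfra-high subepithelial-like cells (195, 108 and 241) carried Pdgfra at 2006 to 2369 CPM with Bmp5, Wnt5a and Foxl1. Smooth muscle-like cells (156, 110 and 123) carried Myh11 and Acta2, and Ano1/Kit cell-like cells (210, 243 and 94) carried Kit at 2382 to 3718 CPM with Ano1 and Etv1, the genes of the interstitial pacemaker cells of gut muscle. Vascular endothelium-like cells numbered 107, 100 and 102 and columnar epithelium-like cells 1928, 1510 and 847. A large stromal cluster led by Hp, Lcn2, Smoc2, Frzb and Timp1 (158, 136 and 97 cells) is called s13. Another, led by Cox8b, Car8, Kcnn3 and Thbs2 (247, 248 and 95 cells), is called s4. Both scored highest for the deep-layer fibroblast list, at 0.320 (s13) and 0.296 (s4), which was too low for a name. Statements on deep-layer fibroblasts therefore cover the named cluster only, except where first-level clusters are used. Grem1 fibroblast-like cells (36, 49 and 46) fell short of 50 cells in each library, and squamous epithelium-like cells (231, 179 and 0) were absent from MECA367, so both are described by level only.

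Stromal cells held most of the collagen message. They carried 70.5%, 76.3% and 79.1% of all collagen UMIs of the kept cells, and clusters that were unnamed or mixed genes of several types held another 22.1%, 16.7% and 17.2%. Among classes with 50 cells in each library, to which all statements on the highest class are limited, the level was highest in s13. It was 19982, 18269.6 and 20391 CPM of all chains together. The unnamed stromal clusters s11 (84, 93 and 34 cells) and s12 (112, 38 and 103 cells) fell under that limit. They had 23398, 17979 and 20931 CPM (s11) and 20131, 18460 and 14154 CPM (s12). Thus s11 was above s13 in RatIgG and MECA367 and s12 in RatIgG and DATK32, with 95% Poisson intervals apart only for s11 in RatIgG. Pdgfra-high cells had 17904, 15578 and 14224 CPM, mucosal fibroblasts 16822, 13532 and 11163 CPM, deep-layer fibroblasts 18239.7, 11833 and 10409 CPM and s4 12675, 11094 and 9625 CPM. With its exact 95% Poisson interval, which covers counting error only, the value for s13 in RatIgG was 19371 to 20606 CPM and that for the Pdgfra-high cells 17322 to 18500.5 CPM. Deep-layer cells were above mucosal and Pdgfra-high cells in RatIgG and under both in the other 2 libraries, so these 3 neighbours have no fixed order. Smooth muscle stood at 8422, 7665 and 6750.1 CPM, Ano1/Kit cells at 4015, 4309 and 3884 CPM and endothelium at 2836, 2298 and 2078 CPM, and these 3 classes did not overlap in any library. Squamous epithelium had 412 and 454 CPM in RatIgG and DATK32, and columnar epithelium 70.7, 60.5 and 39.8 CPM.

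**Figure D1:**
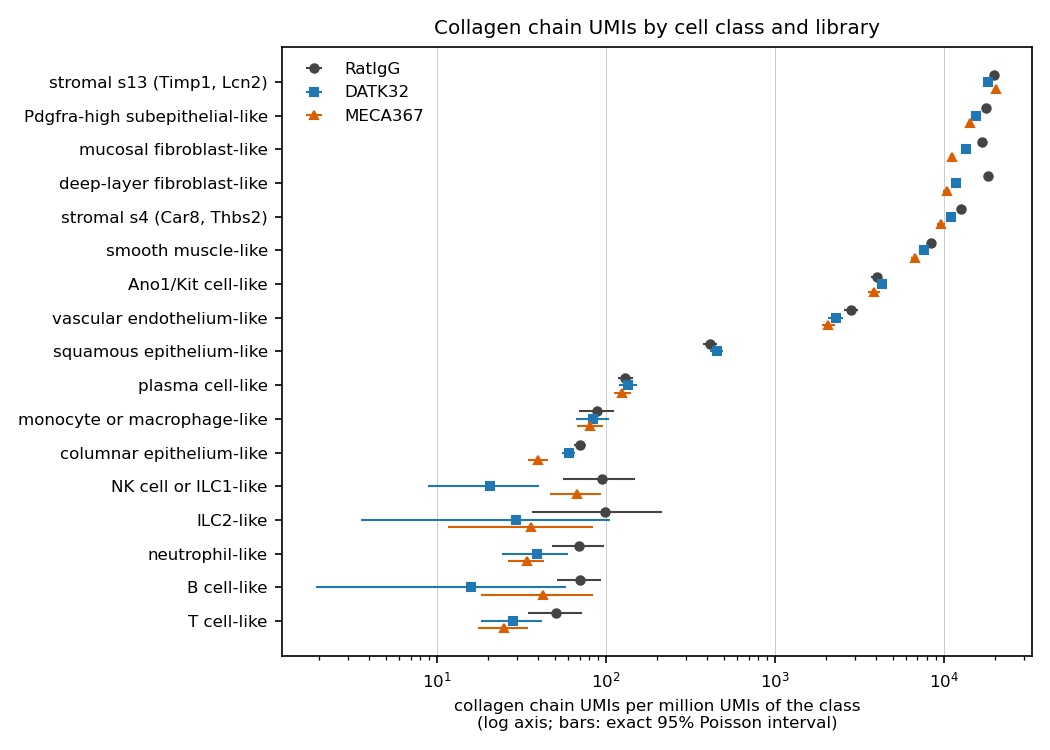
Collagen chain level in CPM (log axis) in the 3 libraries, for the classes with 50 cells in each library and for squamous epithelium, with exact 95% Poisson intervals as bars. Stromal classes lie between 3884 and 20391 CPM, endothelium between 2078 and 2836 CPM, and columnar epithelium and the immune classes drawn here under 150 CPM.

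The immune classes gave the background for these values. The 7 immune classes that reached 50 cells throughout, which are not known as collagen producers, still showed 102, 81.0 and 70.5 CPM, or 0.727%, 0.707% and 0.603% of the stromal level. Within them plasma cells had 131, 136 and 126 CPM and T cells 51.1, 28.3 and 25.0 CPM. Columnar epithelium lay within this range, so no expression is read from its collagen total, and the source of these UMIs was not tested. Its Col8a1 is described on its own below. A mast cell or basophil-like class of 21, 8 and 36 cells, too small to be among these 7, carried 5546, 1264 and 3697 CPM. The barcodes over the mitochondrial limit, left out here, carried 343, 263 and 364 CPM of collagen chains.

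Of the 27 chains with at least 50 UMIs, 25 were highest in a stromal or endothelial class in all 3 libraries, where 35% of all 14605 genes measured the same way were. The comparison covers the 14 named classes with 50 cells in each library and leaves out s4, s11, s12, s13, the Grem1 cells and the squamous cells. The same class led in all 3 libraries for 15 chains (28.8% of all genes). It led clearly, with its interval apart from that of the next class in each library, for 6 (6.26% of all genes). Those 6 were Col4a5, Col4a6, Col6a2, Col12a1 and Col18a1 in the Pdgfra-high cells and Col14a1 in the deep-layer fibroblasts. Pdgfra-high cells led 8 chains in all, deep-layer fibroblasts 3, mucosal fibroblasts 2, and endothelium and Ano1/Kit cells 1 each. The 2 chains with other leaders, Col7a1 and Col17a1, belonged to squamous epithelium.

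**Figure D2:**
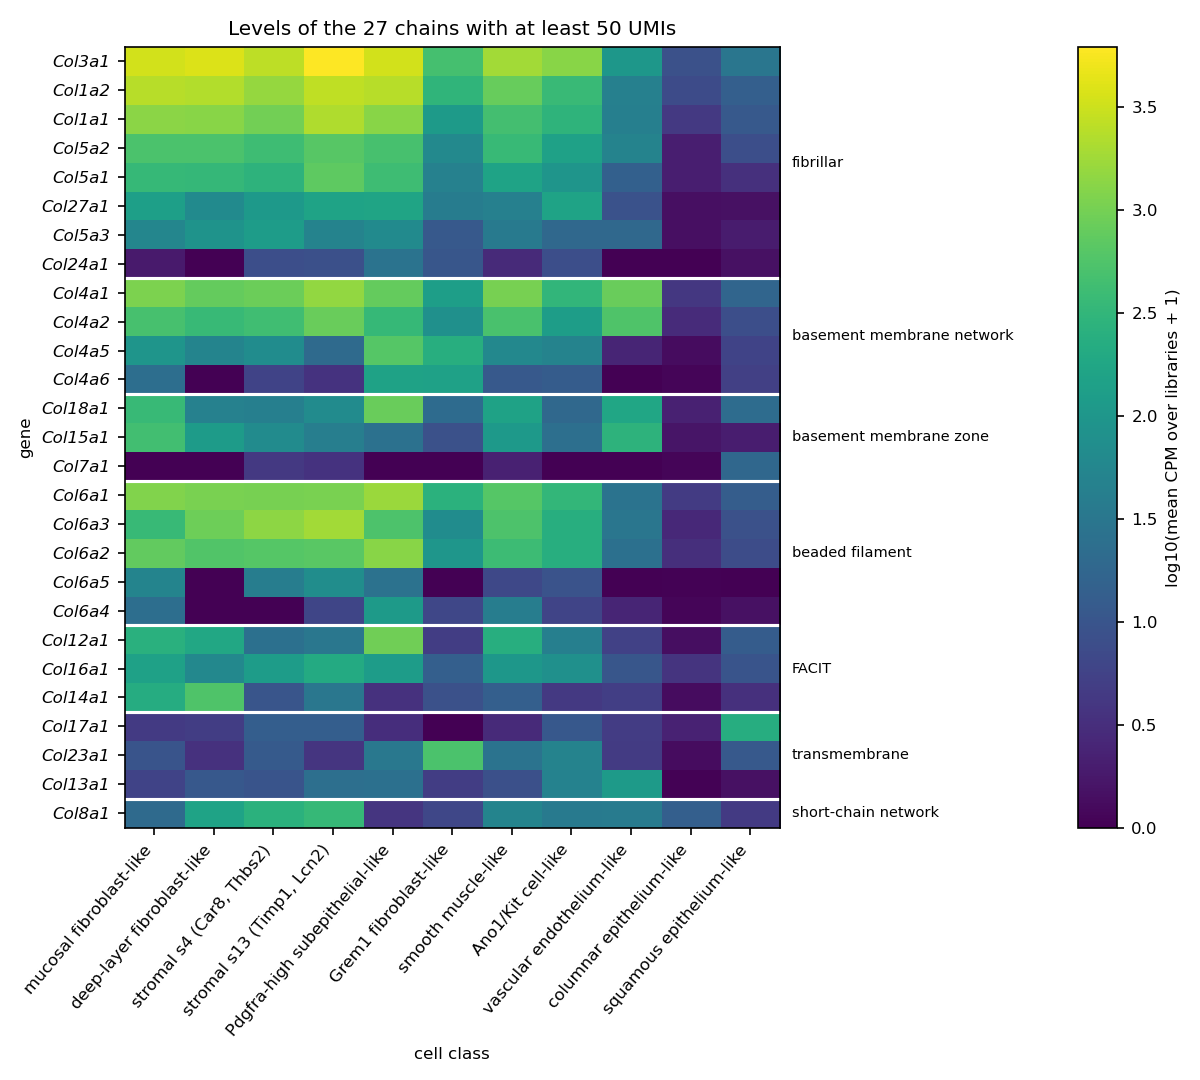
Mean level over the libraries of the 27 chains with at least 50 UMIs (rows, by structural group) in 11 cell classes (columns), as log10(CPM + 1) in colour. Col1a1, Col1a2 and Col3a1 are bright in the mucosal, deep-layer, Pdgfra-high, s4 and s13 columns, while the fibrillar chain Col24a1 is dim throughout. Col4a5, Col4a6, Col14a1, Col17a1 and Col23a1 are each brightest in 1 or 2 columns. Col12a1 is brightest in the Pdgfra-high column and also visible in the mucosal, deep-layer and smooth muscle ones.

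Col3a1, the chain of type III collagen, was the most abundant of all, with 24904 of the UMIs, followed by Col1a2 (13174) and Col1a1 (8358), the 2 chains of type I. Col3a1 reached 5926, 5612 and 7109 CPM in s13, 4813, 3822 and 3280.0 CPM in deep-layer fibroblasts, 4174, 3455 and 2640.2 CPM in mucosal fibroblasts and 3736, 3645 and 3007 CPM in Pdgfra-high cells. Smooth muscle carried 2108, 1746 and 1655 CPM and Ano1/Kit cells 987, 1469 and 1502 CPM, against 149.6, 115 and 40.4 CPM in endothelium. These 4 populations were thus above the muscle, pacemaker and endothelial values within each library. Col3a1 lies at chr1:45311538-45349706 on the plus strand (GRCm38, GENCODE vM21), next to Col5a2 at chr1:45374321-45503282 on the minus strand. The bases just upstream of its RefSeq start, chr1:45311288-45311537 in GRCm38.p6, are shown because this is the leading chain. They hold 1 TATAAA, written in capitals and searched on both strands, a motif found in 12.37% of 32817 promoter windows of 250 bases and in 5 of the 35 chains in the table.
Col3a1: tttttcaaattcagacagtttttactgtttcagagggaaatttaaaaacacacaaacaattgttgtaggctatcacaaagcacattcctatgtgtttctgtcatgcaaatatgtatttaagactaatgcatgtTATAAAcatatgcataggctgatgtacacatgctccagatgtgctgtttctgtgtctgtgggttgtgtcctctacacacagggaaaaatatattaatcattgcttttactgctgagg

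Col1a2 stood at 3200.4, 2355 and 1742 CPM in mucosal fibroblasts, 3488, 1656 and 1633 CPM in deep-layer fibroblasts, 2979.8, 2398 and 1882 CPM in Pdgfra-high cells and 2756, 2669 and 2675 CPM in s13. Col1a1 stood at 1677, 1422 and 1022 CPM, 1918, 1047 and 1011 CPM, 1713, 1202 and 1023 CPM and 2228, 2100.0 and 2361 CPM in the same classes. RatIgG was the highest library for both genes in the mucosal, deep-layer and Pdgfra-high cells, and their log2 ratios are given with the comparisons between libraries. A type I helix holds more chains from Col1a1 than from Col1a2, yet Col1a1 had fewer UMIs, at 0.524 to 0.604 per Col1a2 UMI in mucosal fibroblasts and 0.787 to 0.883 in s13. Counts from the 3′ end are not divided by transcript length, so such ratios describe captured message and not protein.

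The minor fibrillar chains followed the same cells at lower levels. Col5a1, a chain of the type V collagen that seeds fibrils, was highest in s13 at 744, 614 and 798 CPM. It stood at 451, 437 and 358 CPM in Pdgfra-high cells, 581, 255 and 179.7 CPM in deep-layer and 406, 296 and 326 CPM in mucosal fibroblasts. Its partner Col5a2 stood at 631, 667 and 636 CPM in s13, 697.5, 396 and 464 CPM in deep-layer and 694, 489.5 and 373 CPM in mucosal fibroblasts. Pdgfra-high cells had 392 to 641 CPM of Col5a2, and smooth muscle 411, 386 and 283 CPM. Col5a3 stayed under 150 CPM in every class with 50 cells in each library. Col27a1, a fibrillar chain with a short helix, differed from the rest in that Ano1/Kit cells, at 192, 158 and 126 CPM, were near Pdgfra-high cells at 220.4, 146 and 116 CPM. Col24a1 was rare, with 58 UMIs in all and 10.02, 37.96 and 31.7 CPM in the Pdgfra-high cells.

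The type IV chains divided into a widespread pair and a restricted one. Col4a1 and Col4a2 encode the chains of the common type IV network. Col4a1 was measured at 1380.4, 1363 and 1805 CPM in s13, 1190.0, 1127 and 1009 CPM in mucosal fibroblasts, 959.9, 1074 and 1021 CPM in smooth muscle, 930.1, 746 and 848 CPM in endothelium and 806, 734 and 785 CPM in Pdgfra-high cells. Col4a2 was measured at 887, 729 and 897 CPM in s13, 644, 497 and 525 CPM in endothelium, 538, 565 and 406 CPM in smooth muscle and 459.8, 628 and 392 CPM in mucosal fibroblasts. Both genes were highest in s13 in all 3 libraries, and no named class led either gene in all 3. Endothelium carried 0.619 to 0.692 Col4a2 UMIs per Col4a1 UMI and mucosal fibroblasts 0.386 to 0.557. Ano1/Kit cells had little of either, at 299, 315 and 333 CPM for Col4a1.

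Col4a5 and Col4a6 encode the chains of a second type IV network, known from the basement membranes of smooth muscle and some epithelia, and lie head to head on the X chromosome with starts 1309 bases apart. Col4a5 stood at 621, 506 and 721 CPM in Pdgfra-high cells, against 108, 92.4 and 77.04 CPM in mucosal fibroblasts, 49.9, 67.1 and 55.9 CPM in smooth muscle and 0, 0 and 4.49 CPM in endothelium. Col4a6 stood at 130.2, 158 and 175 CPM in Pdgfra-high cells and 18.03, 27.7 and 20.9 CPM in mucosal fibroblasts. It had no UMI in deep-layer fibroblasts, where the exact 95% intervals reach 42.9, 52.2 and 27.6 CPM, and none in endothelium, where they reach 23.99, 22.4 and 16.6 CPM. The few Grem1 cells had 15, 10 and 15 UMIs of Col4a5 (386, 159 and 175 CPM) and 7, 9 and 10 of Col4a6 (180.1, 143 and 117 CPM), the Col4a6 value in RatIgG lying above that of the Pdgfra-high cells. Pdgfra-high cells carried 0.690 to 0.919 Col4a5 UMIs per Col4a1 UMI, where mucosal fibroblasts carried 0.076 to 0.091. Because both genes had their clear lead in 1 class, the bases upstream of each start are printed from RefSeq GRCm38.p6 on the gene's own strand: Col4a6 at chrX:141474077-141474326 (minus) and Col4a5 at chrX:141475169-141475384 (plus). The Col4a5 window is shortened to 216 bases, since an exon is annotated in the rest of it, while the motif shares below are over windows of 250 bases. Capitals mark a motif, searched on both strands: in Col4a5 CCAAT, found in 33.83% of promoter windows and in 13 of those of the 35 chains, and in Col4a6 the complement of GGGCGG, found in 32.72% of windows and in 21 of those chains.
Col4a6: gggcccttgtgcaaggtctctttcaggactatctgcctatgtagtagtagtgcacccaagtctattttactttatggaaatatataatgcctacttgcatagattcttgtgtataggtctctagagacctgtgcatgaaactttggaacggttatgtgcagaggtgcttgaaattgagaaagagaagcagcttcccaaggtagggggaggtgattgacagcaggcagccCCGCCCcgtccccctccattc
Col4a5: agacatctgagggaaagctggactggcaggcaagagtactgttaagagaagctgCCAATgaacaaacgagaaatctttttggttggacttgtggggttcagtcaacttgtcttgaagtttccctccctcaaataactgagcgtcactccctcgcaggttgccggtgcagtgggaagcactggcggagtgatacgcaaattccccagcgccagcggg

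Col15a1 and Col18a1 encode related collagens of the basement membrane zone, and Col18a1 is the source of the fragment endostatin. Both were higher in mucosal than in deep-layer fibroblasts, but their levels in Pdgfra-high cells were far apart. Col18a1 was clearly highest in Pdgfra-high cells at 932, 943 and 676 CPM, with 406, 305 and 368 CPM in mucosal fibroblasts, 195, 194 and 135 CPM in endothelium and 34.9, 56.6 and 44.9 CPM in deep-layer fibroblasts. Col15a1 was highest in mucosal fibroblasts at 487, 453 and 403 CPM and next in endothelium at 332, 315 and 211 CPM, while Pdgfra-high cells had 30.05, 31.6 and 13.6 CPM. Per Col15a1 UMI there were 29.8 to 49.7 Col18a1 UMIs in Pdgfra-high cells, 0.673 to 0.913 in mucosal fibroblasts and 0.588 to 0.638 in endothelium. Col7a1, the chain of the fibrils that anchor stratified epithelium, had 25 and 12 of its 59 UMIs in the squamous cells of RatIgG and DATK32, and none in Pdgfra-high cells.

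Type VI chains were present in all fibroblast classes. Col6a1 stood at 1768, 1443 and 1737 CPM in Pdgfra-high cells, 1451, 969.9 and 1085 CPM in mucosal fibroblasts, 1488, 948 and 771 CPM in deep-layer fibroblasts and 1262, 982 and 984 CPM in s13. Col6a2, its neighbour on chromosome 10, stood at 1532, 1221 and 1195 CPM in Pdgfra-high cells and 892, 702 and 672 CPM in mucosal fibroblasts. Col6a3, the longest of the 3 main chains, was highest in s13 at 2238, 1764 and 1585 CPM and s4 at 1834, 1283 and 1074 CPM, with 1232, 849 and 644 CPM in deep-layer fibroblasts, 811, 449 and 383 CPM in Pdgfra-high cells and 478, 305 and 304 CPM in mucosal fibroblasts. The number of Col6a3 UMIs per Col6a1 UMI was 1.61 to 1.80 in s13, 1.05 to 1.61 in s4, 0.828 to 0.896 in deep-layer fibroblasts, 0.280 to 0.329 in mucosal fibroblasts and 0.221 to 0.459 in Pdgfra-high cells, the last 2 overlapping. Col6a4 was found mainly in Pdgfra-high cells at 80.1, 133 and 138 CPM and smooth muscle at 44.4, 22.4 and 52.2 CPM. Col6a5 was found in mucosal fibroblasts at 63.1, 36.9 and 49.6 CPM and s13 at 83.8, 36.8 and 94.6 CPM, and neither had a UMI in deep-layer fibroblasts.

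Among the 3 measured FACITs, which sit on the surface of fibrils, Col12a1 and Col14a1 each had a clear leading class and Col16a1 had none. Col12a1 stood at 801, 999.7 and 971 CPM in Pdgfra-high cells, 379, 231 and 145 CPM in mucosal fibroblasts and 211, 302 and 209 CPM in smooth muscle, and s4 and s13 stayed under 35 CPM. In deep-layer fibroblasts Col12a1 was 488, 42.5 and 29.95 CPM, so RatIgG was far above the other 2 libraries on 42, 3 and 4 UMIs. Col14a1 stood at 709, 552 and 442 CPM in deep-layer fibroblasts and 243, 240.2 and 193 CPM in mucosal fibroblasts, against 24.7, 36.8 and 30.3 CPM in s13 and 5.01, 0 and 2.27 CPM in Pdgfra-high cells. Col16a1 was spread over the stroma, at 261, 205 and 163 CPM in s13 and 135, 175 and 129 CPM in mucosal fibroblasts.

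The transmembrane chains marked small populations. Col17a1, a part of the hemidesmosomes that hold keratinocytes down, was at 224 and 239 CPM in squamous cells, on 240 and 243 UMIs, and at 1.32, 0.936 and 1.65 CPM in columnar cells. Col13a1 was highest in endothelium at 45.5, 146 and 153 CPM, followed by Ano1/Kit cells at 40.5, 23.5 and 75.4 CPM. Col23a1 stood at 772, 510.2 and 303 CPM in Grem1 cells, on 30, 32 and 26 UMIs, and at 50.6, 43.6 and 50.3 CPM in Ano1/Kit cells.

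Col8a1, a short-chain collagen known from vessel walls, was found in stroma at 359.9, 360.2 and 310.2 CPM in s13, 266, 263 and 263 CPM in s4 and 291, 84.9 and 105 CPM in deep-layer fibroblasts. It was also the chain with the highest level in columnar epithelium in DATK32 and MECA367, and the third in RatIgG, at 9.87, 18.95 and 10.3 CPM. Within that class it fell to the cluster led by A4gnt, Retnlb, Spink4 and Muc2, genes of mucus-producing goblet cells, with 76, 156 and 55 UMIs. These stand for 22.8, 42.9 and 23.8 CPM, where the other 3 columnar clusters had at most 3.32 CPM. A small enteroendocrine-type cluster had 8, 3 and 1 UMIs, or 38.2, 22.2 and 6.99 CPM. In plasma cells, where Col3a1 reached 28.6, 33.1 and 30.5 CPM, Col8a1 was at 2.203, 1.09 and 0.412 CPM and in T cells at 0, 0 and 0.695 CPM. The goblet-type level was above both.

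The make-up of the collagen message separated endothelium from the rest. Fibrillar chains gave 62.4 to 64.2% of collagen UMIs over the libraries in deep-layer fibroblasts, 56.1 to 61.9% in mucosal fibroblasts, 62.6 to 67.5% in s13, 48.3 to 54.7% in Pdgfra-high cells, 47.3 to 50.8% in smooth muscle and 6.05 to 16.1% in endothelium. Type IV chains gave 54.1 to 66.3% in endothelium, 18.5 to 22.3% in smooth muscle and 7.07 to 10.6% in deep-layer fibroblasts. The zone chains added 16.6 to 22.2% in endothelium, 5.31 to 6.91% in mucosal fibroblasts and 1.02 to 1.65% in deep-layer fibroblasts. Type VI chains had their largest share in s4, at 25.6 to 30.4%, beside 20.9 to 24.6% in Pdgfra-high cells and 14.6 to 26.0% in Ano1/Kit cells. Ano1/Kit cells, with a low total, had 52.6 to 63.8% fibrillar chains and 12.4 to 13.4% type IV.

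**Figure D3:**
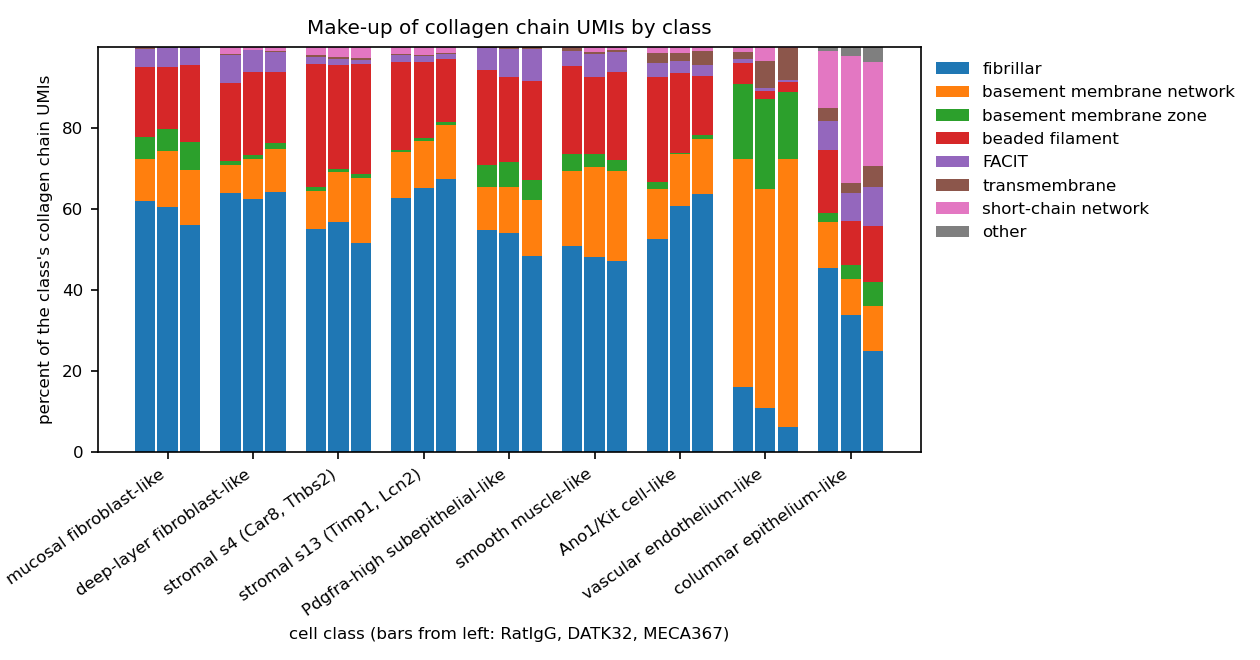
Percent of each class's collagen chain UMIs that falls to each structural group, with 1 bar per library in the order RatIgG, DATK32, MECA367. Type IV chains make up 54.1 to 66.3% of the endothelial bars and at most 22.3% of any stromal bar.

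Deep-layer and mucosal fibroblasts were compared within each library, which keeps the antibody and the library the same. A gene was called where the fold was at least 1.5 with 95% intervals apart in all 3 libraries, and 19 chains had the 50 UMIs needed. Higher in deep-layer cells were 2 chains, where 1.26% of 3640 genes were. Lower were 2 chains, where 1.81% of all genes were, and 15 were called neither way. Col6a3 was higher with log2 ratios of 1.35, 1.46 and 1.09, and Col14a1 with 1.51, 1.18 and 1.21. Col15a1 was lower with -1.61, -2.22 and -1.59, and Col18a1 with -3.16, -2.15 and -2.82. The groups were thus split between zone chains on the mucosal side and Col6a3 and Col14a1 on the deep side, while Col3a1 (0.21, 0.15 and 0.32) and Col1a1 (0.19, -0.43 and -0.01) differed little. Over the 19 chains the median log2 ratio was 0.01, -0.43 and -0.39, beside 0.06, 0.03 and 0.10 over all genes. Col12a1 turned between libraries, with 0.37, -2.08 and -1.97. The first-level clusters were used as an alternative chosen after the data were seen. They kept Col6a3, Col15a1 and Col18a1 but turned Col14a1 to -0.42, -1.20 and -0.73. Col8a1 was added on the deep side and Col12a1 on the mucosal side (2.89% of genes higher, 2.77% lower). The first-level deep-layer cluster was larger, with 632, 503 and 315 cells, and its leading genes included Cox8b, Kcnn3 and Thbs2, which also lead s4. With the chains used to cluster, the Col18a1 call was lost, at a mean of -2.37, and 1 lower chain was left.

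**Figure D4:**
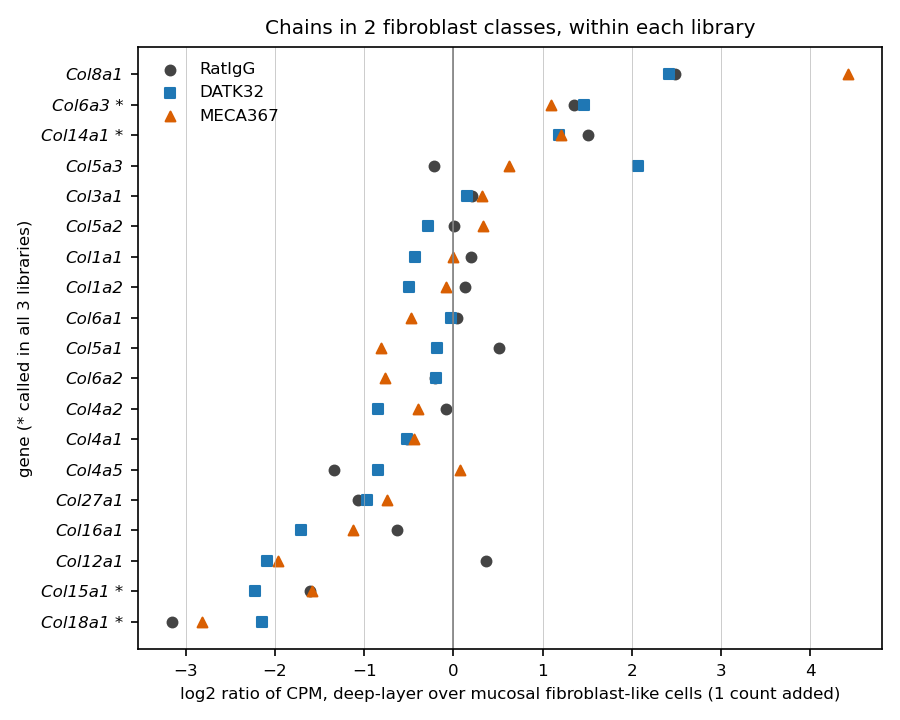
Log2 ratio of CPM in deep-layer over mucosal fibroblast-like cells for the 19 measured chains, 1 point per library, with an asterisk where all 3 libraries were called. Col6a3 and Col14a1 lie right of 0 and Col15a1 and Col18a1 left of 0 in every library.

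The bases upstream of Col6a3 and Col15a1, which were called on opposite sides and kept their side in both clusterings, are printed for comparison from RefSeq GRCm38.p6: Col6a3 at chr1:90843972-90844221 (minus strand) and Col15a1 at chr4:47207762-47208011 (plus strand). The genes lie at chr1:90765923-90843971 and chr4:47208161-47313167 (GENCODE vM21), the latter with a start that differs from that of RefSeq. Neither window holds any of the motifs named for Col3a1, Col4a5 and Col4a6 on either strand, and Col6a3 has 57.2% and Col15a1 53.6% G or C.
Col6a3: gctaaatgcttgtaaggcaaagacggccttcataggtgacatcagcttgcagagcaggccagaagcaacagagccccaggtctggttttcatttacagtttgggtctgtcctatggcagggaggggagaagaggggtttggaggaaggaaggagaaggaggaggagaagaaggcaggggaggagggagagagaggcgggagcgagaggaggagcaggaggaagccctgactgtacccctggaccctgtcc
Col15a1: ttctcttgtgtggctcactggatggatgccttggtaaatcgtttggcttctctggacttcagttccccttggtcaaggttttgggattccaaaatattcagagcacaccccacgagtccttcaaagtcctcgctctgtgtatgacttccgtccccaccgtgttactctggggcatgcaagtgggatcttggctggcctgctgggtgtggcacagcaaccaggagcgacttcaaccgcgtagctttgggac

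Of the other matrix genes in 5 lists, the proteoglycans and matricellular proteins had 13 measured, of which 3 were higher (1.26% of genes) and 1 lower (1.81%) in deep-layer cells. Dcn, decorin, which binds fibrils, stood at 16508, 17240 and 17059 CPM there against 6446, 7103 and 6795 CPM in mucosal fibroblasts. Tnxb and Sparcl1 were higher as well. Postn, periostin, was lower at 546, 226 and 239.6 CPM against 2371, 1903 and 1694 CPM. None of the 7 basement membrane partners, 4 receptors, 13 folding enzymes and chaperones or 6 cleavage and crosslinking genes was called.

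Between libraries, the mucosal, deep-layer and Pdgfra-high cells of RatIgG had the highest collagen totals, as did smooth muscle, endothelium, s4 and columnar epithelium. The T, B, NK, ILC2, neutrophil and macrophage-like classes, part of the background, were also highest in RatIgG. Ano1/Kit and plasma cells were highest in DATK32. Against RatIgG, background totals were called lower for MECA367 in T cells (-1.03) and neutrophils (-1.06) and for DATK32 in NK cells (-2.11). In s13 the total was level, with log2 ratios of -0.13 for DATK32 and 0.03 for MECA367 against RatIgG, neither called. In mucosal fibroblasts the total of MECA367 against RatIgG had a log2 ratio of -0.59 and was called, and that of DATK32 against RatIgG was -0.31 and not called. The mucosal call lies at the threshold and was lost under TMM scaling (-0.57), the mean over cells (-0.56), clustering with the chains (-0.53), no mitochondrial limit (-0.57) and a coarser stromal clustering (-0.58). In deep-layer fibroblasts both were called, at -0.62 for DATK32, lost under TMM scaling (-0.58) and the mean over cells (-0.45), and at -0.81 for MECA367. Pdgfra-high cells (-0.20 and -0.33), smooth muscle (-0.14 and -0.32), Ano1/Kit cells (0.10 and -0.05) and endothelium (-0.30 and -0.45) were not called. The total of s4 (-0.19 and -0.40) was not called either. These comparisons share the RatIgG library. DATK32 against MECA367 gave 0.28 in mucosal fibroblasts, 0.19 in deep-layer fibroblasts, 0.20 in s4 and -0.16 in s13, none called. In NK cells it gave -1.59, which was called. Median UMIs per cell were lowest in RatIgG in every stromal and endothelial class compared here, s4 and s13 included. They were 855, 1205.5 and 1836 in mucosal fibroblasts, 866.5, 1090.5 and 1358 in deep-layer fibroblasts and 887, 1209.5 and 1532 in Pdgfra-high cells. Smooth muscle had 984, 1311.5 and 1996, Ano1/Kit cells 843.5, 1008 and 1551.5 and endothelium 919, 976.5 and 1461. The values were 766, 1009.5 and 1406 in s4 and 1202.5, 1636 and 2480 in s13. With cells under 1000 UMIs left out and the others thinned to 1000 UMIs each, which changes the cells as well as the depth, the totals against RatIgG were -0.32 for DATK32 and -0.62 for MECA367 in Pdgfra-high cells, the last past the limit for a call. This left 73, 71 and 198 of the Pdgfra-high cells. The same thinning gave -0.18 and -0.49 in smooth muscle, 0.22 and 0.00 in Ano1/Kit cells, -0.18 and -0.55 in s4 and -0.21 and -0.11 in s13, none called. Mucosal fibroblasts, deep-layer fibroblasts and endothelium fell under 50 cells in a library, so the part of depth in their results was not tested. The antibodies, the animals and the library preparation cannot be told apart with 1 library each.

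In mucosal fibroblasts 17 chains were measured. The value in brackets after a gene, here and in the other classes, is its log2 ratio of CPM, first library over second. For MECA367 against RatIgG 6 were lower (3.52% of 2873 genes were) and 0 higher (3.59%), and the median was -0.43 beside -0.09 for all genes. They were Col1a1 (-0.72), Col1a2 (-0.88), Col3a1 (-0.66), Col5a2 (-0.91), Col6a3 (-0.67) and Col12a1 (-1.41), that is 4 fibrillar chains, 1 of type VI and 1 FACIT. Col4a1 (-0.25), Col4a2 (-0.25), Col6a1 (-0.43), Col6a2 (-0.42), Col14a1 (-0.38), Col15a1 (-0.29) and Col18a1 (-0.17) were not called. For DATK32 against RatIgG none was called in either direction (0.975% of genes higher, 0.278% lower), with a median of -0.31 beside -0.01 for all genes. The values were Col1a1 (-0.24), Col1a2 (-0.44), Col3a1 (-0.27), Col4a1 (-0.08), Col4a2 (0.44), Col6a1 (-0.58), Col6a2 (-0.34), Col6a3 (-0.63), Col14a1 (-0.02), Col15a1 (-0.10) and Col18a1 (-0.40). For DATK32 against MECA367, Col4a2 alone was higher (2.58% of genes) at 0.70 and none was lower (2.37%). The others ran as Col1a1 (0.48), Col1a2 (0.44), Col3a1 (0.39), Col4a1 (0.17), Col6a1 (-0.15), Col6a2 (0.08), Col6a3 (0.04), Col14a1 (0.36), Col15a1 (0.19) and Col18a1 (-0.23). Epithelial markers took 0.0234%, 0.0185% and 0.0300% of the UMIs of the class and immune markers 0.0730%, 0.0951% and 0.0876%.

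In deep-layer fibroblasts, the smallest of these classes, 11 chains were measured. For DATK32 against RatIgG 4 were lower, where 2.95% of 814 genes were lower and as many higher. They were Col1a1 (-0.86), Col1a2 (-1.07), Col5a1 (-1.14) and Col6a1 (-0.64), and the median was -0.53 beside 0.02. Not called were Col3a1 (-0.33), Col4a1 (-0.08), Col4a2 (-0.32), Col6a2 (-0.32), Col6a3 (-0.53) and Col14a1 (-0.35). For MECA367 against RatIgG 6 were lower (6.76% of genes) and 0 higher (6.63%), with a median of -0.92 beside 0.01 for all genes. They were Col1a1 (-0.92), Col1a2 (-1.09), Col5a1 (-1.66), Col6a1 (-0.95), Col6a2 (-0.97) and Col6a3 (-0.93). Not called for MECA367 were Col3a1 (-0.55), Col4a1 (-0.18), Col4a2 (-0.56) and Col14a1 (-0.68). DATK32 against MECA367 had no call (4.42% of genes in either direction), with Col1a1 (0.06), Col1a2 (0.03), Col3a1 (0.22), Col4a1 (0.10), Col4a2 (0.24), Col6a1 (0.31), Col6a2 (0.65), Col6a3 (0.41) and Col14a1 (0.33). Immune markers took 0.123%, 0.0609% and 0.0614% of the UMIs of the class, highest in RatIgG. Leaving out the cells with marker RNA of other types (1.19%, 0% and 0%) changed no call on the total and no count of called chains here. The part of the immune RNA in the remaining cells was not tested.

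In Pdgfra-high cells 17 chains were measured and Col6a3 alone was lower for DATK32 against RatIgG (-0.84), where 1.22% of 2546 genes were lower and 1.34% higher. Not called there were Col1a1 (-0.51), Col1a2 (-0.31), Col3a1 (-0.04), Col4a1 (-0.13), Col4a2 (0.05), Col6a1 (-0.29), Col6a2 (-0.32) and Col18a1 (0.02). For MECA367 against RatIgG 5 were lower (2.83% of genes) and 0 higher (3.46%): Col1a1 (-0.74), Col1a2 (-0.66), Col5a2 (-0.71), Col6a3 (-1.08) and Col27a1 (-0.93). Col12a1 (0.27) was not called, and neither were Col3a1 (-0.31), Col4a1 (-0.04), Col4a2 (-0.23), Col6a1 (-0.03), Col6a2 (-0.36) and Col18a1 (-0.47). DATK32 against MECA367 had no call (2.55% of genes higher, 2.83% lower), with Col1a1 (0.24), Col1a2 (0.35), Col3a1 (0.28), Col4a1 (-0.09), Col4a2 (0.29), Col6a1 (-0.26), Col6a2 (0.04), Col6a3 (0.24) and Col18a1 (0.49). The Col6a3 call for DATK32 was lost with cell minimums of 1000 UMIs and 500 genes (-0.61), with thinned cells (-0.76) and at a fold of 2, and that of Col27a1 for MECA367 in 5 of 15 alternatives. Immune markers took 0.0921%, 0.0715% and 0.0662% of the UMIs.

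**Figure D5:**
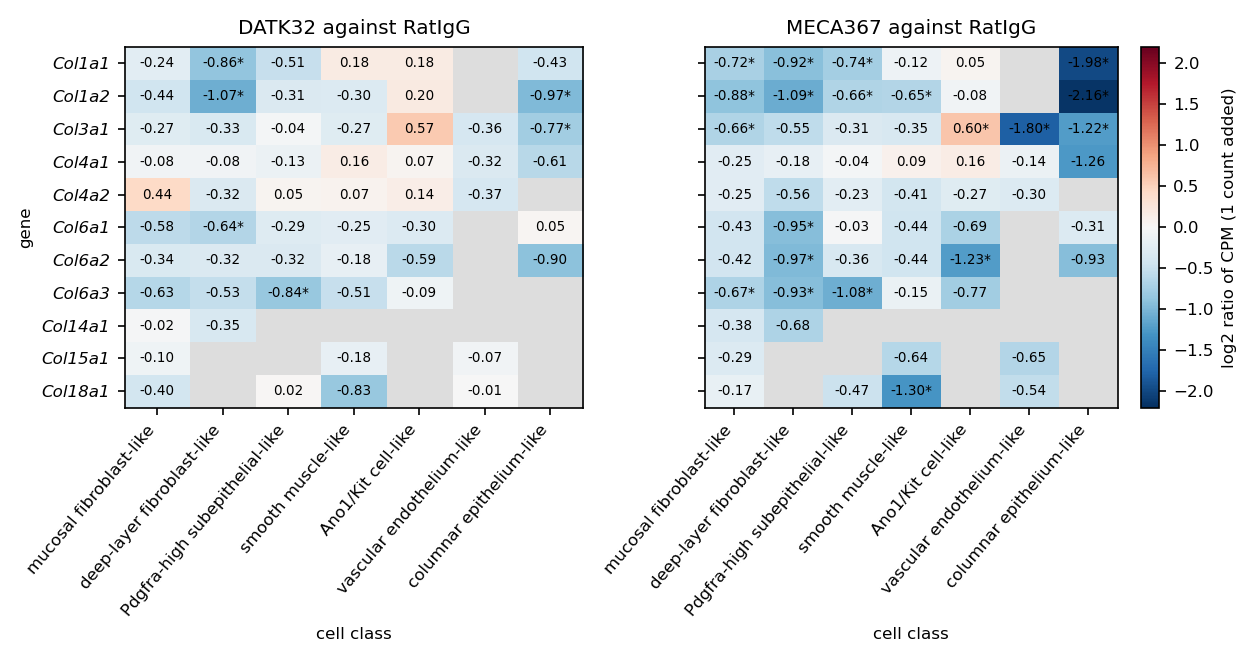
Log2 ratio of CPM of 11 chains in 7 classes for DATK32 (left) and MECA367 (right) against the shared RatIgG library, with an asterisk at a fold of at least 1.5 with intervals apart and grey where fewer than 50 UMIs were counted. For MECA367, Col1a1 and Col1a2 carry asterisks in all 3 fibroblast columns, while no Col4a1 or Col4a2 value is called in these 7 classes.

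In smooth muscle none of 14 chains was called for DATK32 against RatIgG (1.15% of 2007 genes higher, 1.2% lower), and Col1a2 (-0.65) and Col18a1 (-1.30) were lower for MECA367 (3.29% lower, 3.49% higher). The Col1a2 call was lost in 6 of 16 alternatives, among them cell minimums of 1000 UMIs and 500 genes (-0.49), a mitochondrial limit of 5% (-0.27) and no such limit (-0.13). The Col18a1 call was lost in 3 of 15, which were the same settings, among them the limit of 5% (-0.99) and no limit (-0.82). The uncalled smooth muscle values were Col1a1 (0.18), Col1a2 (-0.30), Col3a1 (-0.27), Col4a1 (0.16), Col4a2 (0.07), Col6a1 (-0.25), Col6a2 (-0.18), Col6a3 (-0.51), Col15a1 (-0.18) and Col18a1 (-0.83) for DATK32 and Col1a1 (-0.12), Col3a1 (-0.35), Col4a1 (0.09), Col4a2 (-0.41), Col6a1 (-0.44), Col6a2 (-0.44), Col6a3 (-0.15) and Col15a1 (-0.64) for MECA367. In Ano1/Kit cells none of 12 was called for DATK32 (1.14% of 2374 genes higher, 0.8% lower). For MECA367 against RatIgG Col3a1 was higher (0.60, 3.83% of genes) and Col6a2 lower (-1.23, 1.85%). Uncalled in Ano1/Kit cells were Col1a1 (0.18), Col1a2 (0.20), Col3a1 (0.57), Col4a1 (0.07), Col4a2 (0.14), Col6a1 (-0.30), Col6a2 (-0.59) and Col6a3 (-0.09) for DATK32 and Col1a1 (0.05), Col1a2 (-0.08), Col4a1 (0.16), Col4a2 (-0.27), Col6a1 (-0.69) and Col6a3 (-0.77) for MECA367. Col3a1 in these cells was 987, 1469 and 1502 CPM, RatIgG alone being low, and this call was lost in 5 of 15 alternatives. Neither class had a call for DATK32 against MECA367 (smooth muscle 2.59% higher and 2.84% lower, Ano1/Kit cells 2.27% and 2.49%). That comparison gave Col1a1 (0.30), Col1a2 (0.34), Col3a1 (0.08), Col4a1 (0.08), Col4a2 (0.48), Col6a1 (0.18), Col6a2 (0.26), Col6a3 (-0.36), Col15a1 (0.45) and Col18a1 (0.47) in smooth muscle and Col1a1 (0.12), Col1a2 (0.28), Col3a1 (-0.04), Col4a1 (-0.09), Col4a2 (0.42), Col6a1 (0.39), Col6a2 (0.64) and Col6a3 (0.68) in Ano1/Kit cells.

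In endothelium 6 chains were measured, and none was called for DATK32 against RatIgG (2.04% of 1866 genes higher, 1.71% lower) or against MECA367 (4.45% higher, 2.89% lower). For MECA367 against RatIgG Col13a1 was higher (1.59, 4.02% of genes) and Col3a1 lower (-1.80, 4.39%), with 7, 24 and 34 and 23, 19 and 9 UMIs. Immune markers took 0.576%, 0.616% and 1.12% of the UMIs of the class, and 7.48%, 4% and 5.88% of its cells carried more than the set share of marker RNA of another type. With those cells left out, Col13a1 gave 1.56 and Col3a1 no longer had the UMIs to be compared, so no chain was called lower. Without the highest doublet scores neither was called, Col13a1 giving 1.34. The uncalled endothelial values were Col3a1 (-0.36), Col4a1 (-0.32), Col4a2 (-0.37), Col15a1 (-0.07) and Col18a1 (-0.01) for DATK32 and Col4a1 (-0.14), Col4a2 (-0.30), Col15a1 (-0.65) and Col18a1 (-0.54) for MECA367 against RatIgG, and Col3a1 (1.43), Col4a1 (-0.18), Col4a2 (-0.07), Col15a1 (0.58) and Col18a1 (0.52) for DATK32 against MECA367.

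In columnar epithelium 8 chains were measured, and the total gave -0.22 for DATK32 and -0.83 for MECA367 against RatIgG and 0.60 between them, the last 2 called. For DATK32 against RatIgG Col1a2 (-0.97) and Col3a1 (-0.77) were lower (1.09% of 11246 genes) and Col8a1 was higher (0.93, 0.88%). For MECA367 against RatIgG Col1a1 (-1.98), Col1a2 (-2.16) and Col3a1 (-1.22) were lower (3.02%) and none was higher (1.72%). For DATK32 against MECA367 Col1a1 (1.55), Col1a2 (1.19) and Col8a1 (0.87) were higher (1.88%) and none was lower (1.17%). Col3a1 was at 11.4, 6.67 and 4.76 CPM here and at 28.6, 33.1 and 30.5 CPM in plasma cells and 12.2, 8.41 and 13.5 CPM in macrophage-like cells. These fibrillar values are within the background, and no difference in expression is read from them. Col8a1 was at 9.87, 18.95 and 10.3 CPM, DATK32 alone being high. With a mitochondrial limit of 5%, both Col8a1 calls were lost, at 0.94 against RatIgG and -0.13 against MECA367, the latter turned. They were also lost with thinned cells, at 0.96 and 1.20, and at a fold of 2.

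In s4 and s13, which have no name and lie outside the rule for named genes, values were chosen after they were seen. Of 14 chains in s13 none was called in any comparison. The median log2 ratio was -0.16 for DATK32 and -0.02 for MECA367 against RatIgG, beside -0.02 and -0.04 over 2128 genes, of which 0.893% and 3.43% were higher and 0.705% and 2.96% lower. For DATK32 against MECA367 it was -0.00 beside 0.03 (2.77% of genes higher, 2.16% lower). Of 14 chains in s4 none was called for DATK32 against RatIgG (1.56% of 1984 genes higher, 0.907% lower), with a median of -0.19 beside -0.01. Lower for MECA367 against RatIgG were 4 chains (2.77% of genes), Col1a1 (-0.93), Col1a2 (-0.82), Col6a3 (-0.77) and Col6a2 (-0.62). Col4a1 (0.67) was the 1 chain higher (4.08% of genes), and the median was -0.29 beside 0.01 for all genes. For DATK32 against MECA367 Col1a1 (0.69) was higher (2.22% of genes) and none was lower (2.42%). The Col4a1 call was lost in 3 of 9 alternatives, and each of the 4 lower calls in 1 of 9. Clusters formed anew under another setting need not match s4 or s13, so only settings that keep the clusters were run for them.

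The other matrix genes were followed in the 3 fibroblast classes. In mucosal fibroblasts, MECA367 against RatIgG had Tmem38b (1.78) and Ppib (0.61), 2 of 12 folding genes, higher (3.59% of genes), and Sparcl1 (-1.97), Ogn (-1.15) and Tnxb (-1.08), 3 of 11 proteoglycans and matricellular proteins, lower (3.52%). The 6 cleavage and crosslinking genes, 7 basement membrane partners and 4 receptors had no call. DATK32 against RatIgG and against MECA367 had no call in any of the 5 lists. In deep-layer fibroblasts, DATK32 against RatIgG had Lox (-1.52), the crosslinking lysyl oxidase, and Thbs2 (-1.43), Postn (-1.21) and Bgn (-0.75) lower (2.95% of genes). MECA367 against RatIgG had 6 of 12 proteoglycans and matricellular proteins lower (6.76% of genes), the lowest being Thbs2 (-1.70), Ogn (-1.35) and Postn (-1.18), as well as Hspg2 (-1.27), which encodes the basement membrane proteoglycan perlecan. Aspn (1.52) was higher in DATK32 than in MECA367 (4.42%). In Pdgfra-high cells, Aspn (-1.09), Prelp (-0.85) and Bgn (-0.63) were lower for DATK32 against RatIgG (1.22% of genes), Aspn (-1.13) and Pcolce (-0.71) for MECA367 against RatIgG (2.83%), and Thbs1 (-0.65) for DATK32 against MECA367 (2.83%).

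The 15 chains with fewer than 50 UMIs over the kept cells were Col11a2 and Col28a1 (42 each), Col25a1 (33), Col20a1 (32), Col4a4 and Col8a2 (30 each), Col22a1 (15), Col4a3 (11), Col9a3 (9), Col9a1 and Col26a1 (6 each), Col11a1 (4), Col6a6 and Col9a2 (2 each) and Col10a1 (1). Among them are the cartilage chains and the type IV chains of kidney and lung membranes, and at this depth no level is given for any of them.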

How the data were processed

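Per the labels' protocols, colonic mononuclear cells of DSS-treated mice were sorted for viability and CD45, and libraries were made with 10x 3′ chemistry (v3.1) and run on 1 lane. Reads were counted by the authors in Cell Ranger 6.0.2 against mm10, as the submitters' processing notes and, for the version, the headers state. The annotation, filters and strand setting are not given in the sources used here. The deposited matrices hold counts, raw UMIs per gene and barcode. The members and lists were chosen with earlier results of these data known.

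Kept cells were scaled to 10000, log-transformed and clustered with scanpy 1.11.5 on 2000 variable genes without the members, 30 components, 15 neighbours and Leiden resolution 1.0 (igraph 0.11.9, seed 1). Stromal cells were clustered again with 20 components. Clusters were named from marker lists by mean standardised expression (score at least 0.5, lead at least 0.3, at least 3 markers in 5% of cells, top 10 genes not mostly markers of a different class); these limits were set after the data were seen. Doublets were kept, and cells with the highest Scrublet scores were removed as an alternative. Counts were summed per class and library and given as CPM with exact 95% Poisson intervals. A difference was called at a fold of at least 1.5 with intervals apart, for genes with 50 counts, in classes with 50 cells per library. Log2 ratios add 1 count. With 1 library per group there is no test. Chains with 50 UMIs are named with levels. Between libraries, the text names, in the named classes, each called chain plus Col1a1, Col1a2, Col3a1, Col4a1, Col4a2, Col6a1, Col6a2, Col6a3, Col14a1, Col15a1 and Col18a1 where measured, and, in the 3 fibroblast classes, called matrix genes, up to 3 highest and 3 lowest per list; genes named in s4 and s13 were chosen after their values were seen. The call rule was run on simulated Poisson counts at the real class totals. These hold no variation between animals or library preparations, so they give no error rate for differences between libraries. Sequences are from RefSeq GRCm38.p6, which holds 35 of the 44 chains.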

Additional observations from a re-analysis of the deposited data

Results flagged for a closer look

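Col3a1 moved in opposite directions in different classes for MECA367 against RatIgG. It was higher in Ano1/Kit cells, with a log2 ratio of 0.60, and lower in mucosal fibroblasts (-0.66), endothelium (-1.80) and columnar epithelium (-1.22). The difference between the classes was not tested, since each library is 1 sample. Counts of Col3a1 in endothelium were 23, 19 and 9, and the columnar values, 11.4, 6.67 and 4.76 CPM, are no higher than those of plasma cells, 28.6, 33.1 and 30.5 CPM. No difference in expression is read from the columnar values, which turned to 0.69 with each library clustered on its own. The call in Ano1/Kit cells was lost in 5 of 15 alternatives. Endothelial Col3a1 had under 50 UMIs, and so no value, without cells carrying RNA of other types and without the highest doublet scores.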

How the results depend on the processing

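Set against their alternatives, the main results kept direction and side of the limit 1156 times, moved 130 times, were no longer called 24 times, became called 1 time and turned 2 times. For single genes 4212 did so, 92 were no longer called, 59 became called and 8 turned. The values that changed follow, with the class and the comparison in brackets, and the cause was not tested. With TMM scaling, the total no longer called was 0.57 (columnar DATK32/MECA367), -0.58 (deep-layer DATK32/RatIgG) and -0.57 (mucosal MECA367/RatIgG). Higher chains numbered 1 (Ano1/Kit DATK32/RatIgG and endothelial DATK32/RatIgG). With cell minimums of 1000 UMIs and 500 genes, the mean total moved to 80.0 (columnar CPM), and the total no longer called was 0.40 (columnar DATK32/MECA367), and higher chains numbered 1 (Ano1/Kit DATK32/RatIgG, Pdgfra-high DATK32/MECA367 and columnar DATK32/MECA367). Lower chains numbered 0 (Ano1/Kit MECA367/RatIgG, Pdgfra-high DATK32/RatIgG and smooth muscle MECA367/RatIgG), 4 (columnar DATK32/RatIgG) and 5 (columnar MECA367/RatIgG), and higher matrix genes numbered 1 (Pdgfra-high MECA367/RatIgG), and lower matrix genes numbered 6 (Pdgfra-high MECA367/RatIgG). With a count minimum of 20, higher chains numbered 1 (s13 DATK32/MECA367 and endothelial DATK32/MECA367), and lower chains numbered 1 (s4 DATK32/RatIgG and endothelial DATK32/RatIgG) and 3 (endothelial MECA367/RatIgG). Lower matrix genes numbered 2 (Pdgfra-high DATK32/MECA367). Without the highest doublet scores, the mean total moved to 40.4 (columnar CPM), and the total no longer called was 0.29 (columnar DATK32/MECA367) and -0.30 (columnar MECA367/RatIgG). Higher chains numbered 1 (Ano1/Kit DATK32/RatIgG and columnar DATK32/MECA367) and 0 (Ano1/Kit MECA367/RatIgG and endothelial MECA367/RatIgG), and lower chains numbered 2 (Ano1/Kit MECA367/RatIgG) and 0 (columnar DATK32/RatIgG, columnar MECA367/RatIgG and endothelial MECA367/RatIgG). With each library clustered on its own, the log2 ratio turned to -0.88 (Col3a1 columnar DATK32/MECA367), 0.69 (Col3a1 columnar MECA367/RatIgG), -1.43 (Col6a1 columnar DATK32/MECA367), 1.78 (Col6a1 columnar MECA367/RatIgG), -0.30 (total columnar DATK32/MECA367) and 0.42 (total columnar MECA367/RatIgG), and higher chains numbered 1 (columnar DATK32/MECA367 and columnar MECA367/RatIgG), and lower chains numbered 2 (Pdgfra-high DATK32/RatIgG and columnar DATK32/MECA367), 0 (columnar DATK32/RatIgG and columnar MECA367/RatIgG), 1 (smooth muscle DATK32/RatIgG) and 4 (smooth muscle MECA367/RatIgG). Higher matrix genes numbered 1 (Pdgfra-high MECA367/RatIgG), and lower matrix genes numbered 1 (Pdgfra-high DATK32/RatIgG) and 4 (Pdgfra-high MECA367/RatIgG). With first-level clusters, the log2 ratio turned to -0.79 (Col14a1 deep-layer against mucosal). With a fold of 2, the total no longer called was 0.60 (columnar DATK32/MECA367), -0.83 (columnar MECA367/RatIgG), -0.62 (deep-layer DATK32/RatIgG), -0.81 (deep-layer MECA367/RatIgG) and -0.59 (mucosal MECA367/RatIgG), and higher chains numbered 0 (Ano1/Kit MECA367/RatIgG, columnar DATK32/RatIgG, mucosal DATK32/MECA367, s4 DATK32/MECA367 and s4 MECA367/RatIgG), and lower chains numbered 0 (Pdgfra-high DATK32/RatIgG, columnar DATK32/RatIgG and s4 MECA367/RatIgG), 1 (Pdgfra-high MECA367/RatIgG, mucosal MECA367/RatIgG and smooth muscle MECA367/RatIgG) and 2 (deep-layer DATK32/RatIgG and deep-layer MECA367/RatIgG). Higher matrix genes numbered 1 (mucosal MECA367/RatIgG), and lower matrix genes numbered 0 (Pdgfra-high DATK32/MECA367), 1 (Pdgfra-high DATK32/RatIgG and Pdgfra-high MECA367/RatIgG) and 4 (deep-layer MECA367/RatIgG). With the mean over cells, the log2 ratio turned to -2.15 (Col6a2 columnar DATK32/MECA367), and the total no longer called was 0.39 (columnar DATK32/MECA367), -0.45 (deep-layer DATK32/RatIgG) and -0.56 (mucosal MECA367/RatIgG), and higher chains numbered 1 (columnar DATK32/MECA367), 2 (mucosal DATK32/MECA367 and s4 DATK32/MECA367) and 0 (s4 MECA367/RatIgG). Lower chains numbered 1 (Ano1/Kit DATK32/RatIgG, columnar DATK32/MECA367, mucosal DATK32/RatIgG and s13 DATK32/MECA367), 2 (Ano1/Kit MECA367/RatIgG), 3 (Pdgfra-high DATK32/RatIgG) and 5 (columnar DATK32/RatIgG), and higher matrix genes numbered 1 (Pdgfra-high DATK32/MECA367 and mucosal DATK32/MECA367), and lower matrix genes numbered 1 (deep-layer DATK32/RatIgG and mucosal DATK32/RatIgG) and 4 (deep-layer MECA367/RatIgG). With the chains used to cluster, the total no longer called was 0.48 (columnar DATK32/MECA367), -0.58 (columnar MECA367/RatIgG) and -0.53 (mucosal MECA367/RatIgG), and higher chains numbered 0 (Ano1/Kit MECA367/RatIgG) and 1 (columnar DATK32/MECA367 and deep-layer DATK32/MECA367). Lower chains numbered 1 (deep-layer against mucosal, mucosal DATK32/RatIgG and smooth muscle MECA367/RatIgG) and 3 (Pdgfra-high DATK32/RatIgG). With a mitochondrial limit of 5%, the log2 ratio turned to -0.13 (Col8a1 columnar DATK32/MECA367), and the mean total moved to 101 (columnar CPM) and 8979 (smooth muscle CPM), and the total no longer called was 0.25 (columnar DATK32/MECA367). Higher chains numbered 0 (columnar DATK32/MECA367 and columnar DATK32/RatIgG) and 1 (endothelial DATK32/MECA367), and lower chains numbered 2 (Pdgfra-high DATK32/RatIgG), 0 (columnar DATK32/RatIgG and smooth muscle MECA367/RatIgG) and 1 (columnar MECA367/RatIgG). With no count minimum, higher chains numbered 1 (s13 DATK32/MECA367) and 2 (endothelial DATK32/MECA367), and lower chains numbered 1 (Ano1/Kit DATK32/RatIgG, s4 DATK32/RatIgG and endothelial DATK32/RatIgG) and 3 (endothelial MECA367/RatIgG). Lower matrix genes numbered 2 (Pdgfra-high DATK32/MECA367). With no mitochondrial limit, the log2 ratio turned to -0.35 (Col1a2 columnar DATK32/MECA367), and the mean total moved to 39.6 (columnar CPM) and 6240 (smooth muscle CPM), and the total no longer called was 0.11 (columnar DATK32/MECA367), -0.19 (columnar MECA367/RatIgG) and -0.57 (mucosal MECA367/RatIgG), and higher chains numbered 1 (Ano1/Kit DATK32/RatIgG and columnar DATK32/MECA367). Lower chains numbered 2 (Ano1/Kit MECA367/RatIgG), 1 (columnar DATK32/RatIgG, columnar MECA367/RatIgG and smooth muscle DATK32/RatIgG) and 0 (smooth muscle MECA367/RatIgG), and higher matrix genes numbered 3 (mucosal DATK32/MECA367) and 0 (mucosal MECA367/RatIgG), and lower matrix genes numbered 0 (Pdgfra-high DATK32/MECA367) and 5 (mucosal MECA367/RatIgG). At resolution 2.0, lower chains numbered 5 (columnar MECA367/RatIgG) and 1 (smooth muscle MECA367/RatIgG), and higher matrix genes numbered 2 (deep-layer DATK32/MECA367). Lower matrix genes numbered 2 (deep-layer DATK32/RatIgG). At stromal resolution 0.6, the total no longer called was -0.58 (mucosal MECA367/RatIgG). With cells thinned to 1000 UMIs, the total became called at -0.62 (Pdgfra-high MECA367/RatIgG), and the total no longer called was 0.13 (columnar DATK32/MECA367) and -0.64 (columnar MECA367/RatIgG), and higher chains numbered 0 (Ano1/Kit MECA367/RatIgG, columnar DATK32/MECA367, columnar DATK32/RatIgG and s4 MECA367/RatIgG) and 3 (Pdgfra-high DATK32/MECA367). Lower chains numbered 0 (Ano1/Kit MECA367/RatIgG, Pdgfra-high DATK32/RatIgG, columnar DATK32/RatIgG and columnar MECA367/RatIgG) and 1 (s13 MECA367/RatIgG), and higher matrix genes numbered 1 (Pdgfra-high DATK32/RatIgG) and 2 (Pdgfra-high MECA367/RatIgG), and lower matrix genes numbered 0 (Pdgfra-high DATK32/MECA367). Without cells carrying RNA of other types, higher chains numbered 1 (Ano1/Kit DATK32/RatIgG) and 0 (Ano1/Kit MECA367/RatIgG). Lower chains numbered 1 (columnar DATK32/RatIgG) and 0 (endothelial MECA367/RatIgG). The log2 ratio of Col14a1 under first-level clusters is the mean over the libraries. The stromal resolution of 0.6 and the first-level clusters were chosen after seeing the data. Some classes were missing or under 50 cells in a library under a setting, so their results between libraries were not checked there. Mucosal fibroblasts gave no value with 1000 UMIs and 500 genes, own-library clustering, a mitochondrial limit of 5%, resolution 2.0 or thinned cells. Deep-layer fibroblasts gave none with 1000 UMIs and 500 genes, own-library clustering, no mitochondrial limit, stromal resolution 0.6 or thinned cells. Deep-layer against mucosal fibroblasts gave none under any of these settings. Endothelium gave none with 1000 UMIs, own-library clustering or thinning, and Ano1/Kit cells none with a mitochondrial limit of 5%. The clusters s4 and s13 were given values only under settings that keep the clusters. No paired analysis was possible because each group has 1 library. The small classes limit the depth: deep-layer fibroblasts of DATK32 held 60 cells, and genes under 50 UMIs were not compared.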
